A study of Mus musculus with 4 samples.

Results

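Nnt and 9 genes of antioxidant defense were followed across 4 ATAC-Seq peak lists from bone marrow stem and progenitor cells (HSPCs). The 9 genes were Sod1, Sod2, Cat, Gpx1, Gpx4, Prdx3, Txn2, Nfe2l2 and Keap1. In ATAC-Seq a transposase inserts adapters into accessible DNA, and a peak marks a stretch of open chromatin. Peaks of the 4 lists were merged where they shared at least 1 bp, and the merged regions within 5000 bp of a gene were assigned to it. This gave 77 regions for the 10 genes, of 337776 in the genome (autosomes and X, mm10). The control libraries (n = 2) are labelled WT for genotype, and the study describes the control mice as Cpt1a fl/fl. The KO libraries (n = 2) are labelled Cpt1a-KO, and the study describes these mice as Cpt1a fl/fl with Vav1-Cre, which deletes the fatty acid import gene Cpt1a throughout the blood system and so not in stem cells alone. The mice were 8 to 12 weeks old, of both sexes and on a C57BL/6 background. The labels call the cells ltHSC, while the study calls the cells it used for ATAC-Seq HSPCs. The labels do not say whether replicates came from separate mice, so the spread between them may be technical.

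Superoxide leaks from the respiratory chain and is turned into hydrogen peroxide by superoxide dismutases, SOD1 in the cytosol and SOD2 in the mitochondrial matrix. Catalase, glutathione peroxidases and peroxiredoxins then remove peroxides, the last of these with electrons from thioredoxins. Both the glutathione and the thioredoxin branch are recharged with NADPH, and NNT, an enzyme of the inner mitochondrial membrane, makes NADPH from NADH with the proton gradient. NRF2, encoded by Nfe2l2, is the transcription factor that switches on many of these genes through a DNA motif called the antioxidant response element (ARE), and KEAP1 holds NRF2 down in unstressed cells. Blood stem cells are known to be sensitive to oxidative stress.

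The stretches of 250 bases before the listed starts of 4 members show what the open starts were made of, and 1 start that was not open. Nfe2l2 and Sod1 are shown because theirs held an ARE match, Cat because its start had the lowest unadjusted p among the 10 starts, and Gpx4 because 1 of its listed starts had no peak in any library. The sequences are from RefSeq (GRCm38.p6), 5′ to 3′ on the strand of the gene, at chr2:75704664-75704913 (minus) for Nfe2l2, chr16:90220512-90220761 (plus) for Sod1, chr2:103485154-103485403 (minus) for Cat, and chr10:80046916-80047165 and chr10:80053315-80053564 (both plus) for Gpx4. Capitals mark matches, on either strand, to any of 7 motifs: the ARE (TGACNNNGC), the ETS site (CCGGAAG), the NRF1 site (GCATGCGC), the GC box (GGGCGG), the YY1 site (AAGATGGC), the GATA site (AGATAA) and the CCAAT box (CCAAT). Matches may overlap.
Nfe2l2: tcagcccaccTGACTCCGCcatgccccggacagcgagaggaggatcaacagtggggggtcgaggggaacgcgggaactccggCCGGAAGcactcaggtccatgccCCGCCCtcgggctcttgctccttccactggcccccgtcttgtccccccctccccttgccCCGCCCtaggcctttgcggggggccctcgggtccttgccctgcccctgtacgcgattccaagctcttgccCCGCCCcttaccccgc
Sod1: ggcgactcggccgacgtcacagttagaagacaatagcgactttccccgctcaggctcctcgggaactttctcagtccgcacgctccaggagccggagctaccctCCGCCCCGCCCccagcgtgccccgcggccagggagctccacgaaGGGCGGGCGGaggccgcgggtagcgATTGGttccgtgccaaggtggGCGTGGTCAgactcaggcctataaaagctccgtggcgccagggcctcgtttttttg
Cat: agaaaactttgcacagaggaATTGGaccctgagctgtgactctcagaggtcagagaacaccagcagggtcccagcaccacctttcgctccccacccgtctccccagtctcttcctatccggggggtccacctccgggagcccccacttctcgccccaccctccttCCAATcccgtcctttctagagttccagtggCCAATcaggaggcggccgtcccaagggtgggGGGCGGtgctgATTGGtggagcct
Gpx4 lower start: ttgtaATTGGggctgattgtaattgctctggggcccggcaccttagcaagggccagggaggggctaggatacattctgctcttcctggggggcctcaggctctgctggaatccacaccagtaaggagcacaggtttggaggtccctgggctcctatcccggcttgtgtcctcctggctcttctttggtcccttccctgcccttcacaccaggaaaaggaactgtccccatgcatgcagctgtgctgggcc
Gpx4 upper start: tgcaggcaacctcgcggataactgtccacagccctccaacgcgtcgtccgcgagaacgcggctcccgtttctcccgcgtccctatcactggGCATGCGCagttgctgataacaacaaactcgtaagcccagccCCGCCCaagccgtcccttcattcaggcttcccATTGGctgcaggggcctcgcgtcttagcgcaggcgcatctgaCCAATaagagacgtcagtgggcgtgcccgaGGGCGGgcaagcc

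Windows of 300 bases, 250 before and 50 after the start, were listed for 9 of the 10 genes and 12 starts. An ARE match lay in 1 window each of Nfe2l2 and Sod1 and in none of the other members. Over all 32619 listed windows 12.4% held an ARE match, and 14.5% of the 15015 windows whose start lay in a region of all 4 libraries. GC boxes were the most common match, in 11 of the 12 member windows, with 4 in Sod1, 4 in Sod2 and 3 in Nfe2l2, against 35.9% of all windows and 64.7% of those with a peak in all libraries. The Cat window held 4 CCAAT boxes, and 37.6% of all windows held at least 1. The ETS site matched in Nfe2l2 and Txn2 (8.92% of all windows), the NRF1 site in Gpx4 (2.72%), the YY1 site in Gpx1 (2.76%) and the GATA site in Keap1 (11.2%). Among windows with a peak in all libraries the shares were 16.5% for ETS, 5.03% for NRF1, 4.04% for YY1 and 5.74% for GATA. The 2 Gpx4 sequences differ in CpG content. The window at the lower start, which had no peak, held 3 CpG dinucleotides, while the window at the upper start, which lay in a region of all libraries, held 31. Windows without a peak had a median of 3 CpG dinucleotides over the genome and windows with a peak in all libraries a median of 21. The other member windows ran from 11 CpG dinucleotides in Cat and in Gpx1 to 34 in Sod1. A match is a description of letters and says nothing about binding.

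The lists held 240881 to 277531 summits per library, each with the authors' fold over background and no read counts, so the depth is unknown. KO 2 had the shortest list, and its −log10 q values were the lowest of the 4 libraries at 9 of the 10 start regions, all but that of Cat. Stem and progenitor markers had a peak in all 4 libraries at 11 of 11 listed starts (Kit, Gata2, Cd34 and others). B cell markers had one in all libraries at 2 of 3 listed starts, T cell markers at 0 of 3 and myeloid markers at 4 of 5. Erythroid markers had one at 0 of 2 and markers of other tissues at 1 of 2. These counts cover listed starts only. With 5000 bp on each side, the strongest region lay at percentiles of 97.7 to 99.1 for Klf1 and 96.7 to 97.9 for Epor, both erythroid. Of the T cell genes, Cd3g had 97.4 to 98.3 and a start peak in 3 libraries, while Cd3e had 61.5 to 74.4. The stem and progenitor starts lay at median percentiles of 88.8 and 88.8 in the controls and 91.7 and 90.3 in KO. Among these starts, both KO values lay below both controls at Mecom (means of 58.4 and 23.6) and above them at Slamf1, Tal1 and Cd34. Over all regions held by 4 libraries, both KO values lay below both controls in 17.8% and above them in 19.0%. The myeloid medians were lower in KO, at 77.3 and 69.8 in the controls and 56.1 and 66.6 in KO. They rest on 4 starts in control 1 and 5 in each other library. At Ltf and S100a8 both KO values lay below both controls, and at Mpo and Lyz2 the groups overlapped. The B cell medians were higher, at 28.1 and 43.1 in the controls and 53.7 and 50.8 in KO. They rest on 2 starts, Pax5, with both KO values above both controls, and Cd79a, whose groups overlapped. The part of such cells in the results was not tested.

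Each of the 9 genes with a listed start had a region of all 4 libraries at a start, and so had the gene end of Nnt that was taken as its start. That end was chosen for having a region, so for Nnt a peak there was fixed by the choice. To compare libraries of different length, the strongest summit of each region was ranked by fold among all regions of its own library, so that 100 is the strongest region. The 10 start regions lay at percentiles of 87.7 to 99.4, with folds of 9.74 to 22.4. Of 17274 protein-coding genes with a listed start, 63.2% had a region of all 4 libraries at a start, and their median percentile was 94.1 to 95.1 per library. An open start is thus what most genes of the genome had in these cells.

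**Figure D1:**
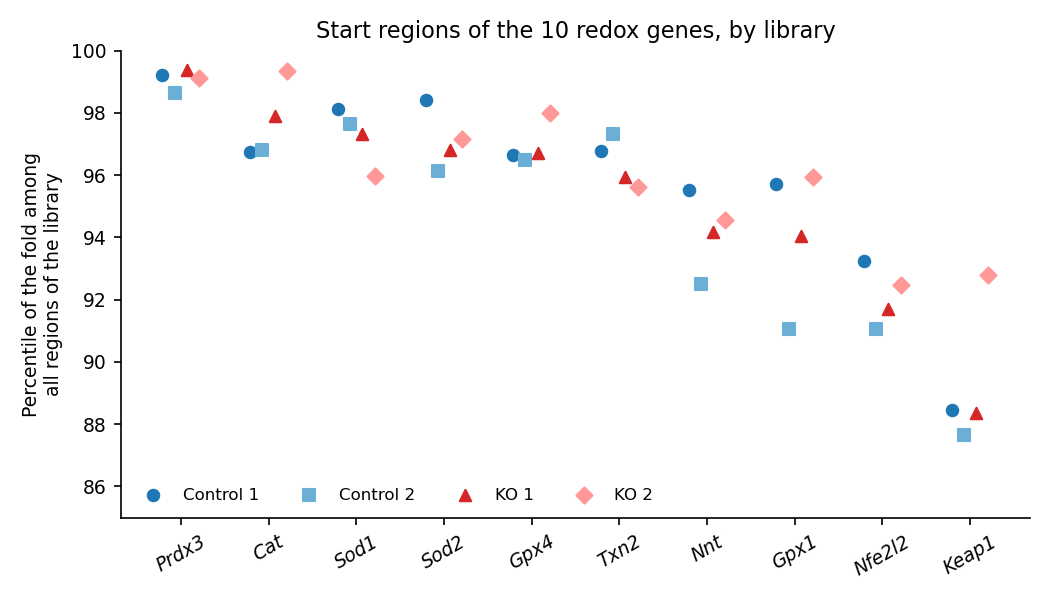
Percentile of the fold at the start region of each gene (vertical axis, from 85 to 100) in control 1, control 2, KO 1 and KO 2, with genes ordered by their mean. All 40 points lie between 87.7 and 99.4, and the control and KO points overlap in 6 of the 10 genes.

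Among the mitochondrial members, Nnt had its start region at chr13:119408145-119409710, over the gene end of higher coordinate. No start was listed for Nnt, and this end was taken because a region lay over it and none over the other end. Its percentiles were 95.5 and 92.5 in the controls and 94.2 and 94.6 in KO, with folds of 15.1, 12.8, 13.7 and 13.1. Both KO values lay between the controls. Prdx3, the peroxiredoxin of the mitochondrial matrix, had the strongest start of the 10 genes (chr19:60874030-60874895), at percentiles of 99.2 and 98.6 in the controls and 99.4 and 99.1 in KO, and stood above 90.7% of the open gene starts. Sod2 (chr17:13007637-13008424) had percentiles of 98.4 and 96.1 in the controls and 96.8 and 97.2 in KO, again within the span of the controls. Txn2, the mitochondrial thioredoxin (chr15:77928652-77929486), had 96.8 and 97.3 in the controls and 95.9 and 95.6 in KO. Both KO values were below both controls, with a mean difference of −1.27 percentile points and a pooled SD of 0.302 within genotypes.

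Among the other enzymes, Cat breaks down hydrogen peroxide in peroxisomes. Its start (chr2:103484607-103485844) had percentiles of 96.8 and 96.8 in the controls and 97.9 and 99.3 in KO. Its folds were 16.7, 17.0, 18.7 and 20.8, and both KO values were above both controls. Sod1 (chr16:90220136-90221412) went the other way in value, with 98.1 and 97.6 in the controls and 97.3 and 96.0 in KO. Gpx1, the common peroxidase of the cytosol (chr9:108338886-108339701), had 95.7 and 91.1 in the controls and 94.0 and 96.0 in KO, and its groups overlapped. Gpx4, which reduces lipid peroxides in membranes (chr10:80053163-80054302), had 96.7 and 96.5 in the controls and 96.7 and 98.0 in KO, with the lower KO value just above both controls. Its lower listed start, at position 80047166, had no peak in any library.

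The regulators had the lowest starts of the set by fold. Ranked by −log10 p instead, Nfe2l2 lay at percentiles of 97.9 to 98.9, above Nnt at 93.9 to 95.8. Nfe2l2 (chr2:75703423-75705161) had percentiles of 93.3 and 91.1 in the controls and 91.7 and 92.5 in KO, and its region was the widest start region of the set at 1739 bp, with 8 summits in each library. Keap1 (chr9:21238572-21239436) had 88.4 and 87.7 in the controls and 88.4 and 92.8 in KO, and stood above 30.7% of the open gene starts. Neighbors in the order of the means (Prdx3, Cat, Sod1, Sod2, Gpx4, Txn2, Nnt, Gpx1, Nfe2l2, Keap1) overlapped over the 4 libraries, except Txn2 and Nnt, whose values did not.

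No difference between the genotypes passed the test at any of these genes. Folds were compared with limma on quantile-normalized log2 values in the 80271 regions with a peak in all 4 libraries, with Benjamini-Hochberg adjustment over all of them. The study tested reads with DiffBind and edgeR, and it reported peaks with higher and with lower accessibility in KO. The test here used another measure and left out regions that lack a peak in a library. Its lack of calls therefore does not contradict that result. Called regions made up 0% of these (0 regions, lowest adjusted p = 0.282), and at an unadjusted p under 0.05 there were 2854 regions higher in KO (3.56%) and 3269 lower (4.07%), or 4063 and 2395 with median scaling in place of quantile normalization. Among the 34 member regions tested, 0 were called (lowest limma adjusted p = 0.643), and 3 had an unadjusted p under 0.05, 2 higher and 1 lower in KO (4 and 0 with median scaling, and 2 and 4 with −log10 p in place of fold). The median log2 difference, KO minus control, was 0.03 over the 34 regions and 0.00 over all regions (0.0308 and 0.00417). Regions with such p-values were a minority over all regions too. Quantile normalization gives the libraries the same distribution, so the median near 0 over all regions follows from it. Before it, the median fold of these regions was 6.10 and 6.18 in the controls and 5.86 and 5.41 in KO.

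The intervals say what the lists can limit. At the Nnt start the log2 fold differed by 0.01 (SE 0.15, 95% interval −0.31 to 0.32, limma adjusted p = 0.994). At the Cat start it was higher in KO by 0.26 (SE 0.12, interval 0.01 to 0.52, adjusted p = 0.647), the only one of the 10 starts with an unadjusted p under 0.05 (0.0431). Sod1 was at −0.16 (SE 0.12), Txn2 at −0.16 (SE 0.13), Keap1 at 0.18 (SE 0.19) and Gpx1 at 0.13 (SE 0.16). The remaining 4 starts ranged from −0.06 in Sod2 to 0.09 in Gpx4, and the small negative values of Sod2 and Nfe2l2 turned positive with median scaling. An interval that spans 0 does not show that the genotypes were alike. An exact permutation test of a single value cannot give a two-sided p under 0.333 with 2 libraries a genotype, and none was run.

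**Figure D2:**
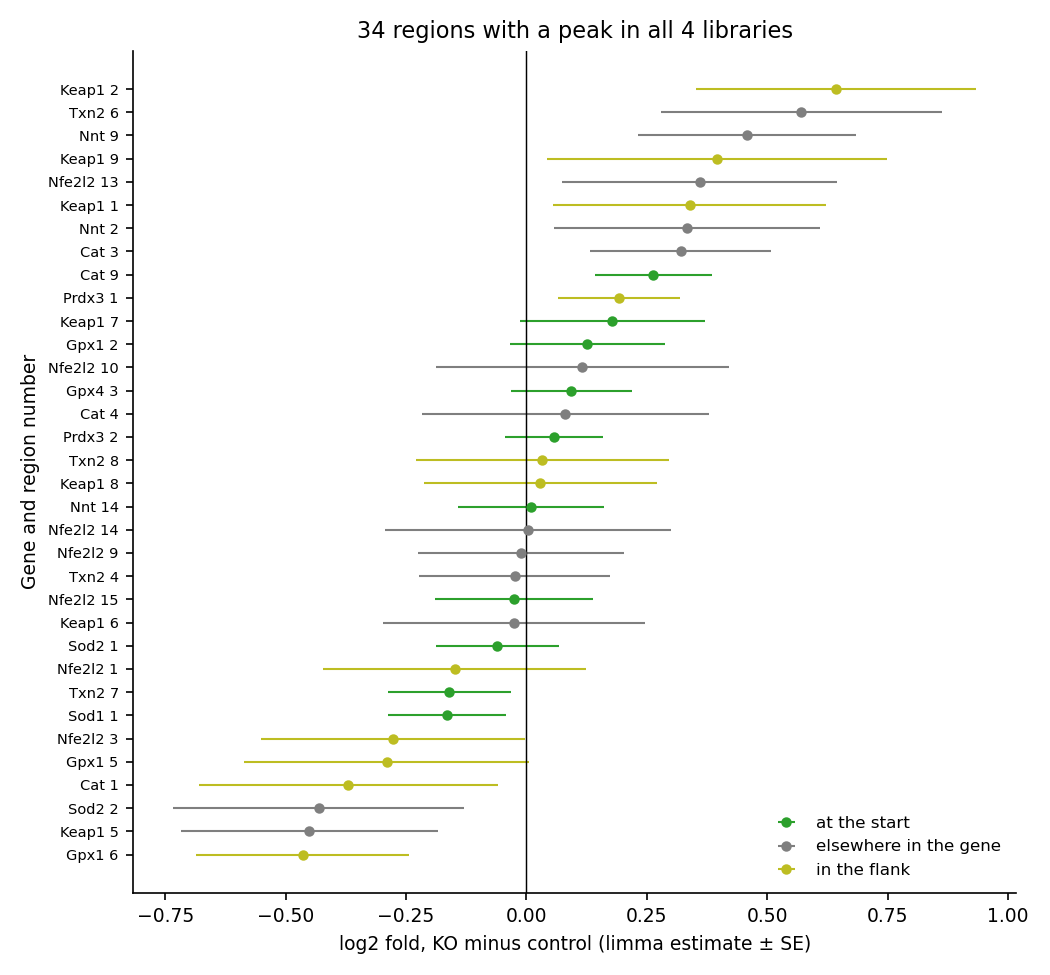
The log2 fold, KO minus control, of the 34 member regions held by all 4 libraries (limma estimate as a point, SE as a bar), ordered by size and colored by place. The start regions lie between −0.16 and 0.26, and the widest spread is among regions away from the starts, from −0.46 to 0.64.

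By rank, both KO libraries lay above both controls in 8 of the 34 member regions (19.0% of all regions of this kind) and below them in 5 (17.8%), and the genotypes overlapped in 21. At the starts these were Cat and Gpx4 above, and Sod1 and Txn2 below. The median difference in percentile was 0.858 points over the members and 0.0551 over all regions.

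Inside Nnt, away from the start, 2 more regions were held by all libraries. The region at chr13:119378344-119378674, 30748 bp from the start end, was the stronger by mean percentile, at 82.2 and 75.6 in the controls and 86.3 and 88.1 in KO. Its folds were 7.47 and 6.52 in the controls and 8.80 and 8.96 in KO, so that both KO values were above both controls (log2 difference 0.46, SE 0.23, limma adjusted p = 0.668). The region at chr13:119341854-119342134 had 73.8 and 85.3 in the controls and 80.3 and 90.7 in KO, and its groups overlapped. Regions of a single library were the most numerous in Nnt, 8 of its 15, and 1 region (chr13:119366272-119366482) was in both controls and neither KO library, with folds of 3.25 and 2.37. The reference strain of mm10, C57BL/6J, is known to lack several exons of Nnt, DNA that cannot show a peak on this build. The C57BL/6 substrain of the mice is not given in the sources used here.

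**Figure D3:**
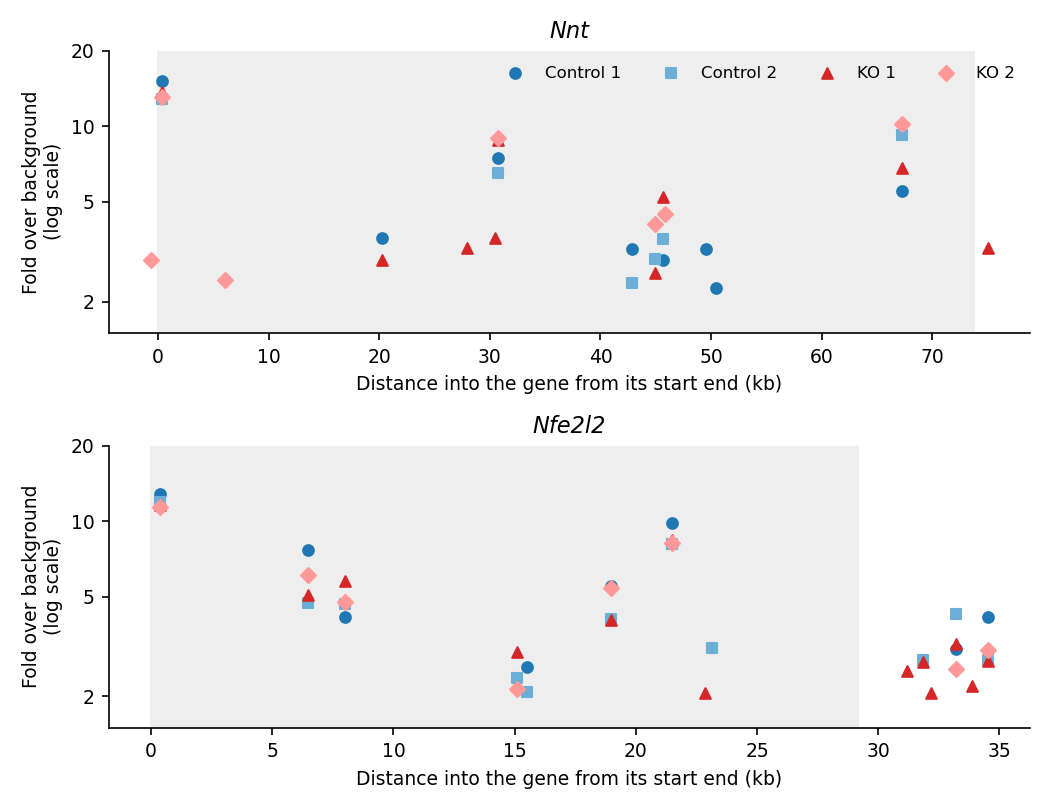
Fold over background (log scale) of every region of Nnt (upper panel) and Nfe2l2 (lower panel) by library, against the distance of its middle from the start end of the gene in kb, with the gene body shaded. The listed start of Nfe2l2 has folds of 11.3 to 12.8. The Nnt end taken as its start, the only end with a region, has 12.8 to 15.1. The regions held by few libraries lie at folds of 5.21 or less.

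Nfe2l2 had 7 regions in all libraries, the most of the 10 genes together with Keap1. Its strongest region away from the start (chr2:75682671-75683676, 21490 bp into the gene) had percentiles of 88.5 and 82.1 in the controls and 85.2 and 86.2 in KO. The KO values lay between the controls, and the log2 difference was −0.01 (SE 0.21). A weak region at chr2:75689043-75689280 was only in the controls, with folds of 2.63 and 2.08. In Keap1 the strongest other region (chr9:21241433-21241814) had 79.5 and 82.3 in the controls and 79.8 and 83.9 in KO.

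Regions at Keap1, Gpx1 and Txn2 with large differences in value were picked after their values were seen. Downstream of Keap1, in its flank at chr9:21227485-21227965, the percentiles were 44.8 and 56.4 in the controls and 71.0 and 75.4 in KO (log2 difference 0.64, SE 0.29, limma adjusted p = 0.643). Inside Keap1, at chr9:21235430-21235626, they were 58.5 and 47.7 in the controls and 1.73 and 36.6 in KO (log2 difference −0.45, SE 0.27, adjusted p = 0.728). The region downstream of Gpx1 at chr9:108342399-108342797 had 31.4 and 38.4 in the controls and 2.93 and 0.452 in KO (log2 difference −0.46, SE 0.22, adjusted p = 0.653). Inside Txn2, at chr15:77920901-77921261, they were 51.9 and 13.7 in the controls and 53.1 and 69.9 in KO (log2 difference 0.57, SE 0.29, adjusted p = 0.682). In each of these regions the KO values lay on 1 side of both controls, and none was called.

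In Cat the strongest other region (chr2:103456693-103456949, inside the gene) had percentiles of 90.9 and 83.9 in the controls and 91.7 and 92.7 in KO, with both KO values above (log2 difference 0.32, SE 0.19). In Sod2 it was at chr17:13009921-13010211, 2227 bp from the start, with 67.9 and 77.5 in the controls and 66.7 and 52.5 in KO, both below (−0.43, SE 0.30). In Txn2 the region at chr15:77916960-77917482 had 88.7 and 89.0 in the controls and 91.5 and 85.5 in KO, and the groups overlapped. Gpx1 had its strongest other region at chr9:108340442-108340877, with 69.2 and 77.8 in the controls and 71.2 and 61.6 in KO.

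The strong region in the flank of Prdx3 belongs to another start. It lies at chr19:60860954-60862040 over the listed start of Sfxn4, which encodes a mitochondrial sideroflexin, and had percentiles of 99.8 and 96.9 in the controls and 99.7 and 99.6 in KO. It was as high as the Prdx3 start itself, and its groups overlapped. No other member region of at least 2 libraries held a listed start of another gene. Outside their starts, Sod1 and Gpx4 had no region in all 4 libraries. The strongest of the others by mean percentile was in Sod1 a flank region of 1 library in each genotype (chr16:90229289-90229523, folds 3.13 and 3.70), and in Gpx4 one of control 2 and KO 1 (chr10:80060450-80060539, folds 2.52 and 2.78).

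Presence in both libraries of 1 genotype and neither of the other was found at 3 member regions. Of the 77 member regions, 34 (44.2%) had a peak in all 4 libraries, 9 in 3, 8 in 2 and 26 (33.8%) in 1, while 23.8% of all regions were in all libraries and 59.3% in 1. The members had 51 and 52 regions in the control lists and 55 and 47 in the KO lists. Of the 51 regions in at least 2 libraries, 3 were only in the controls, beside 6.05% of such regions over the genome, and 0 only in KO, beside 3.47%. The 3 were the regions of Nnt and Nfe2l2 given above and 1 in the flank of Sod1, inside Scaf4 (chr16:90231333-90231625, folds 2.46 and 2.88). All had folds of 2.08 to 3.25, under the lowest start fold of 9.74. A missing peak can be one that was not detected at these depths. With lists of equal length, none of the 3 was only in the controls. That setting drops the weakest summits of the longer lists and adds no KO peak, so it cannot show a missed one. Over the genome it left 5976 regions only in the controls, beside 8325 with the full lists.

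**Figure D4:**
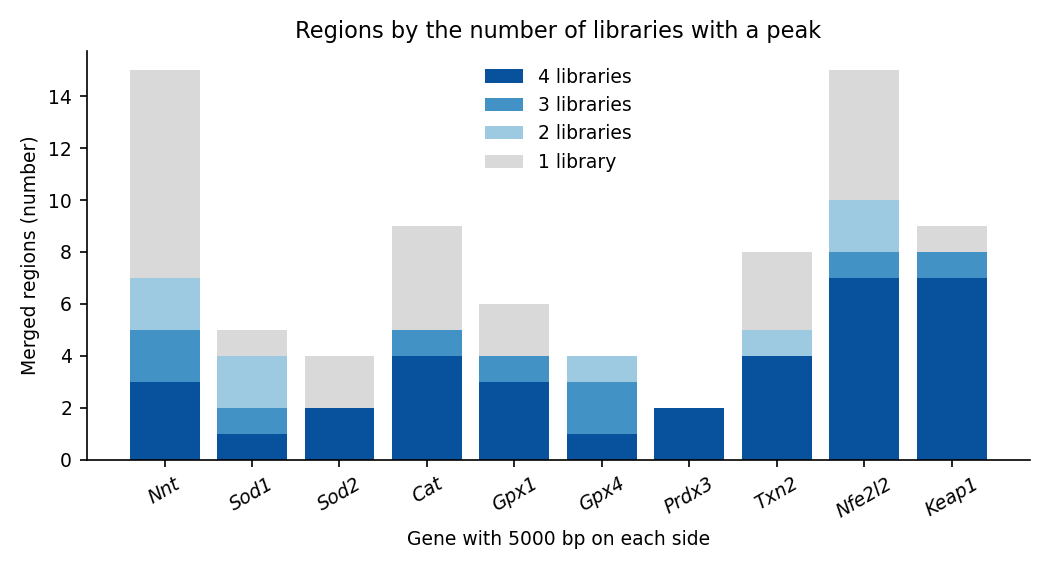
Number of merged regions of each gene with 5000 bp on each side (bars from 0), stacked by the number of libraries with a peak. Nnt and Nfe2l2 have 15 regions each, of which 3 and 7 are in all 4 libraries, and both regions of Prdx3 are in all 4.

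A list of 51 other genes of glutathione, thioredoxin, NADPH and NRF2 pathways was described by the same measures. Of 42 with a listed start, 41 had a region of all 4 libraries there. The list held 327 regions of at least 2 libraries, 16 of them only in the controls (4.89%) and 9 only in KO (2.75%), with folds of 1.75 to 4.40. Of its 218 regions tested by limma, 0 were called in either direction (lowest adjusted p = 0.501), and at an unadjusted p under 0.05 there were 7 higher in KO (3.21%) and 6 lower (2.75%). The median log2 difference was 0.01. Bach2, a repressor that binds ARE-like motifs, had 5 regions only in the controls and 1 only in KO among 58 regions of at least 2 libraries, beside 6.05% and 3.47% of all such regions. Hmox2, the constitutive heme oxygenase, had 2 only in KO. Gpx3, Prdx6 and Oxr1 each had 1 in each direction.

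At the starts of the list, both KO libraries ranked above both controls in 10 of 41 genes and below in 5, beside 19.0% and 17.8% of all regions held by 4 libraries, and 26 overlapped. The genes named next are the ends of that order and stand apart by no test. The largest differences above were in Me3, the mitochondrial malic enzyme that makes NADPH, Mafk, a small partner protein of NRF2, and Txnrd1, the cytosolic thioredoxin reductase. Me3 had percentiles of 73.8 and 68.7 in the controls and 77.7 and 80.6 in KO. Mafk had 92.0 and 89.2 in the controls and 94.9 and 95.2 in KO (log2 difference 0.38, SE 0.16, limma adjusted p = 0.623). Txnrd1 had 93.2 and 88.9 in the controls and 93.8 and 94.8 in KO.

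The largest below were in Prdx2, a cytosolic peroxiredoxin abundant in red cells, Gpx3, a secreted peroxidase, and G6pdx, which makes NADPH in the pentose phosphate pathway. Prdx2 had percentiles of 68.8 and 57.3 in the controls and 43.7 and 20.2 in KO at its listed start (chr8:84969340-84970073), with folds of 4.78 and 4.12 against 3.19 and 2.67 (log2 difference −0.53, SE 0.28, limma adjusted p = 0.686). Gpx3 had 76.5 and 79.8 in the controls and 76.5 and 70.5 in KO. G6pdx had 96.1 and 96.3 in the controls and 94.3 and 95.4 in KO. None of the 6 was called.

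**Figure D5:**
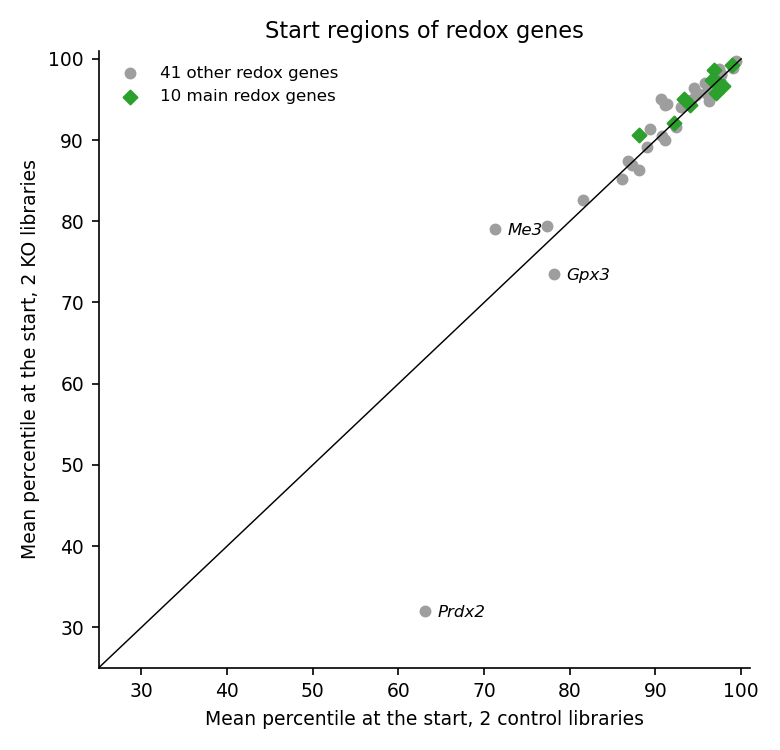
Mean percentile at the start in the 2 KO libraries against the mean in the 2 control libraries, for the 10 members (diamonds) and 41 genes of the wider redox list (circles), with the line of equal values. Most points lie on the line near the upper end, and Prdx2 lies farthest from it, at 63.1 in the controls and 32.0 in KO.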

How the data were processed

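ATAC-Seq peaks of 2 control and 2 KO libraries were analyzed. The submitters' processing notes name Bowtie2 and MACS2, with no version, and mm10. The authors called peaks per library and deposited a row per summit with its fold (a ratio of summit signal to background), −log10 p and −log10 q, with every −log10 p at least 2.0. Read counts are not in the lists, so DiffBind and edgeR, which the study used on reads, could not be run. Intervals were merged at 1 bp in pandas 2.3.3 (numpy 2.4.6, Python 3.11.15). The highest deposited fold per region and library was log2 transformed, quantile normalized and tested with limma 3.58.1 (R 4.3.3; lmFit, eBayes with trend; Benjamini-Hochberg, adjusted p under 0.05). Regions without a peak in every library have no value and were not tested. The merging of regions and the limma step were tested on simulated data.

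Genes were matched in RefSeq (GRCm38.p6), whose table used here gives no exons. Named were, for each member, the region at its start, regions only in 1 genotype and the strongest other by mean percentile. Of the wider list, genes with the most genotype-specific regions (those with more than 1) and the 3 largest non-overlapping start differences in each direction were named. Members and lists were chosen with earlier results of these data known. Alternatives were another threshold, list length, flank, window, scaling, score, the replicate number as a block and leaving out each library.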

Additional observations from a re-analysis of the deposited data

How the results depend on the processing

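No member region was called by limma under any of the 8 alternatives. Over all regions, calls numbered 18 higher and 36 lower in KO with the replicate block, 0 and 1 with median scaling, 1 and 0 with −log10 p in place of fold, and 0 with a mean −log10 q of at least 5 and with each library left out. The labels do not say whether equal replicate numbers mark paired samples. Deviations of same-numbered libraries from their group means had a correlation of 0.00466 over the regions. That value cannot show how the samples were prepared. Of 80 alternative log2 values of the 10 starts, 71 had the same sign. Those with the replicate block or the −log10 q threshold equal the main values by construction, so they could not change sign. With −log10 p in place of fold, a score of another scale, the Txn2 start was at −0.456 and the Cat start at 0.427. Their main values were −0.160 and 0.263. The limma adjusted p of Txn2 with that score, 0.438, was the lowest of the 10 starts over the settings. With median scaling Sod2 was at 0.014 and Nfe2l2 at 0.017, and with a library left out Nnt ranged from −0.106 to 0.124, Sod2 from −0.188 to 0.066, Gpx1 from −0.057 to 0.311, Nfe2l2 from −0.080 to 0.029 and Keap1 from −0.0046 to 0.359. Of 70 alternative percentile differences at the starts, 62 moved by less than the pooled SD within genotypes.

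Member regions only in control numbered 3. They were 0 with lists of equal length, 9 with a flank of 20000 bp, 1 with windows of 200 bp around summits, 8 without either control library and 5 without either KO library. Those only in KO (0) were 1 with the 100000 strongest summits, 2 with a flank of 20000 bp, 1 without control 1, 4 without control 2, 4 without KO 1 and 11 without KO 2. For the wider list, regions only in control (16) were 8 with the 100000 strongest and 26 to 105 with a library left out, and those only in KO (9) were 1 with a −log10 q of at least 5, 3 with the 100000 strongest, 17 with a flank of 20000 bp and 17 to 112 with a library left out. A genotype left with 1 library needs only that peak, so these counts grow by construction. Over the genome, regions only in control numbered 8325, and 7175 with windows of 200 bp. They were 46122 without control 1, 63662 without control 2, 17407 without KO 1 and 14089 without KO 2. Those only in KO numbered 4778, and 8951 without control 1, 8645 without control 2, 61122 without KO 1 and 60646 without KO 2. The flank of 20000 bp held 162 member regions in place of 77. With the 100000 strongest summits the non-overlapping member regions were 5 above and 3 below, in place of 8 and 5, of 25 in all libraries. The share over all regions was not computed for that setting. The unknown depth limits every count, since a missing peak may be an undetected one.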

Other observations

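Where summits with a −log10 q under 5 were left out, 2 member regions were only in the controls, and both had weaker peaks in the KO libraries. Over the genome this threshold left 4497 regions only in the controls and 517 only in KO. The region downstream of Gpx1 had −log10 q values of 8.46 and 12.8 in the controls and 3.48 and 1.61 in KO, and the region inside Keap1 had 8.60 and 8.38 in the controls and 1.02 and 2.70 in KO. With the 100000 strongest summits per library, the flank region of Keap1 was only in KO. Over its whole extent its −log10 q values were 8.81 and 8.37 in KO and 3.39 and 6.20 in the controls. In this setting too, the region downstream of Gpx1 and that inside Keap1 were only in the controls. Over the genome it left 1631 regions only in the controls and 1841 only in KO.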
